A study of Mus musculus with 6 samples.

Results

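The 44 genes described here make up the protein folding and secretion machinery of the endoplasmic reticulum (ER), the membrane compartment in which antibodies and other secreted proteins are made. They were chosen by name, as ER chaperones, disulfide and prolyl isomerases, components of ER-associated degradation, of protein translocation and signal peptide cleavage, of cargo transport, and of the unfolded protein response. Each was matched to the locus of highest mean value carrying its name, and 44 of 44 were found among 44794 named loci. The samples were whole-spleen RNA from mice given imiquimod, which stimulates the RNA receptor TLR7, on 3 occasions a week over 4 weeks. The control group was B6.Sle1b, an autoimmune-prone strain that carries the lupus susceptibility interval Sle1b on a C57BL/6 background (n = 3 libraries), and the other group was Sle1b.IFNγR-/-, the same model without a functional receptor for interferon gamma (n = 3 libraries). Both groups carried Sle1b and both received imiquimod, so the data hold no untreated mice and no mice without Sle1b. The receptor subunit that was disrupted, the age and sex of the mice and the number of mice behind each library are not stated in the labels. The series' design text gives the question as how interferon gamma takes part in the development of autoreactive B cells into antibody-forming cells and germinal centers when TLR7 is stimulated.

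Secreted and membrane proteins enter the ER through the Sec61 channel, lose their signal peptide, receive sugar chains and disulfide bonds, and fold with the help of lumenal and lectin chaperones. Proteins that fail to fold are returned to the cytosol for degradation, and a rising folding load is sensed by the ER membrane proteins IRE1, PERK and ATF6, which raise the expression of chaperones and degradation factors through XBP1, ATF4 and ATF6. Plasma cells and plasmablasts, the antibody-forming cells of the spleen, expand this machinery as they differentiate, and XBP1 is needed for that expansion.

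Some of these genes hold sequence elements of the unfolded protein response in their promoters, and the sequences are shown ahead of the values. Promoters were taken from RefSeq (build GRCm38.p6) as the window from 250 bases before to 50 after the transcription start, and 35 of the 44 genes had an entry. Txndc5 and Fkbp2 had 3 entries each and Fkbp11 and Derl2 had 2 each, and a match in any entry was counted. The ER stress element (ERSE), bound by ATF6 and XBP1 together with NF-Y, was searched as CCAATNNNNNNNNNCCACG on both strands. An exact match was present in 9 of the 35 genes (25.7%), against 37 of 27025 genes with a promoter of the same length (0.137%) and 23 of the 11357 that were also tested for expression (0.203%). The genes with a match were the chaperones Hspa5, Hsp90b1, Dnajc3 and Creld2, the lectin chaperones Calr and Canx, the disulfide isomerase Pdia6, and the degradation components Derl3 and Syvn1. The matches are written here from 5′ to 3′ along the strand that carries the motif, with the letters fixed by the search in capitals, to show how the spacer between them differs from gene to gene.
Hspa5, 65 bases before the start: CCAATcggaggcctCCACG
Calr, 162 bases before the start, opposite strand: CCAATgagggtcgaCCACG
Derl3, 156 bases before the start, opposite strand: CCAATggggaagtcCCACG
Hsp90b1, 212 bases before the start: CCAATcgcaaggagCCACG
Hsp90b1, 107 bases before the start, opposite strand: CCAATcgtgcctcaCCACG
Canx, 145 bases before the start: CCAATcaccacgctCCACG
Pdia6, 98 bases before the start: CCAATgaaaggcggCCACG
Dnajc3, 105 bases before the start: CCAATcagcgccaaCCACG
Creld2, 126 bases before the start, opposite strand: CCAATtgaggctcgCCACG
Syvn1, 44 bases before the start: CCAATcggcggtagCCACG
Hsp90b1 was the only one of the 9 with more than 1 exact match. The related ERSE-II, ATTGG and CCACG with 1 base between them, was present in Herpud1 and Dnajb11 (5.71% of the 35 genes, against 0.0444% of all genes). The unfolded protein response element core TGACGTGG was present in Txndc5 alone (2.86% against 0.714%), and the C/EBP-ATF element TTGCATCA, the kind of site that ATF4 occupies, in Herpud1 alone (2.86% against 1.03%). The C/EBP-ATF element and the response element core were searched on both strands as well, and in these genes no match of a motif overlapped a match of another. When 1 mismatch was allowed in the 10 fixed letters of the ERSE, 16 of the 35 genes had a match (45.7%, against 1.72% of all genes). A match describes the letters in this window and is not evidence of binding. The genes were chosen by name, some of them as parts of the unfolded protein response, so the share with a match is not independent of that choice.

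Full windows are shown for 5 genes: the gene of the main ER chaperone BiP (Hspa5), the gene of highest level (Hsp90b1), the genes with the largest differences between the groups among those with an ERSE (Creld2 and Derl3), and the gene that carries both an ERSE-II and a C/EBP-ATF element (Herpud1). Each is written 5′ to 3′ on the strand of the gene, with every exact match in capitals, spacer included.
Hspa5, chr2:34771840-34772139, plus strand: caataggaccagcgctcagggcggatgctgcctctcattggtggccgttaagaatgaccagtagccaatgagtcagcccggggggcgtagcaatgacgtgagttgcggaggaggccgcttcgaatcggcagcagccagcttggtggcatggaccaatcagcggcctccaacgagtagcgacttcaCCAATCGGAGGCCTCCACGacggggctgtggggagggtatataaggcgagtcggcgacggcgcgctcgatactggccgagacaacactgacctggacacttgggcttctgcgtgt
Hsp90b1, chr10:86705395-86705694, minus strand: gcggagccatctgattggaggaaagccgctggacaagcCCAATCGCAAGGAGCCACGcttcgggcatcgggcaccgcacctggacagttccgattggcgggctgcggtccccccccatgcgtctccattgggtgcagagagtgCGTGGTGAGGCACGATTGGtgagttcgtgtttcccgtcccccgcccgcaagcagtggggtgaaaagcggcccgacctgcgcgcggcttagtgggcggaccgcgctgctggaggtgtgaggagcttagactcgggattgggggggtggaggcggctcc
Creld2, chr15:88819396-88819695, plus strand: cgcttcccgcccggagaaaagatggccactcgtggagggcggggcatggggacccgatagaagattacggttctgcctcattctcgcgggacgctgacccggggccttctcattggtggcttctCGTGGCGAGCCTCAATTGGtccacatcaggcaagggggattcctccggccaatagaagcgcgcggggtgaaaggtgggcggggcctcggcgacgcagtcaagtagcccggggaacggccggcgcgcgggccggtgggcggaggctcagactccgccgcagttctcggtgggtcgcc
Derl3, chr10:75893148-75893447, plus strand: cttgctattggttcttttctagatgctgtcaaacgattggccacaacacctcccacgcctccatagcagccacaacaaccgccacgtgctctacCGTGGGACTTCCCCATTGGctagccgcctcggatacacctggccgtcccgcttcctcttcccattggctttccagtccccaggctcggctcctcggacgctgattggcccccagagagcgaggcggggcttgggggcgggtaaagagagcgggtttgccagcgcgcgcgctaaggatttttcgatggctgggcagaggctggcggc
Herpud1, chr8:94386179-94386478, plus strand: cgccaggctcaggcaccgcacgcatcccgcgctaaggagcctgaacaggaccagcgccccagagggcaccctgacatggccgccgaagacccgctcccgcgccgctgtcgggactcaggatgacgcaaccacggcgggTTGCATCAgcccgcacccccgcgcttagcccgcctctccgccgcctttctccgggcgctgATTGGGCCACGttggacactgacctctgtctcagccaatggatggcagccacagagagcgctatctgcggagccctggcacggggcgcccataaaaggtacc
In Hspa5 the element lies 65 bases before the start and in Derl3 and Creld2 it lies on the opposite strand, 156 and 126 bases before the start. In Herpud1 the C/EBP-ATF element lies 112 and the ERSE-II 52 bases before the start.

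**Figure D1:**
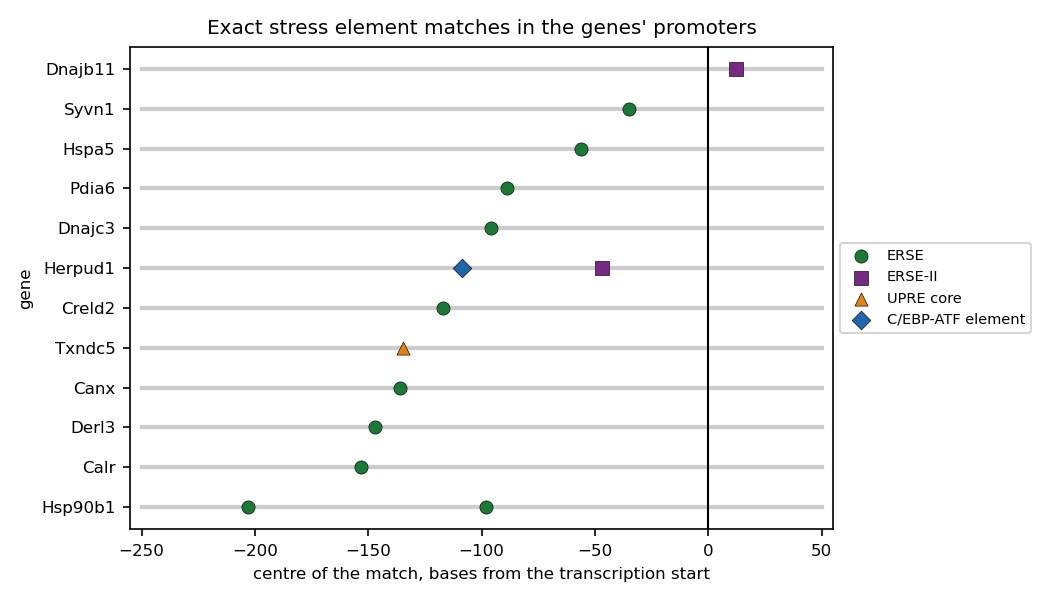
Positions of exact stress element matches in the promoters of the 12 genes that hold any. The x axis gives the centre of each match in bases from the transcription start (vertical line) and each row is a gene; 10 of the 11 ERSE and ERSE-II genes carry their match before the start, and in Dnajb11 it begins 8 bases after it.

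The values are the authors' fragment counts for each locus after quartile scaling between libraries, called scaled counts here. The 6 libraries held between 4394300 and 6349824 fragments, and between 17.5% and 27.0% of them fell on named loci. A value of 3 fragments, the limit that a count of 0 allows for counting error alone, corresponds to between 2.47 and 3.59 scaled counts. B6.Sle1b replicate 1 stood apart from the other 5 libraries. It was the highest of the 6 at 37.9% of the 19227 tested loci, and its share of fragments on named loci was the 27.0%, where the others lay between 17.5% and 20.0%. Ribosomal protein genes, a list unrelated to secretion, lay at a median of 1.41 log2 units above their mean in that library, at -0.43 in B6.Sle1b replicate 2, and in the 4 others between -0.21 and 0.05. Housekeeping genes followed the same order, at 1.26 in B6.Sle1b replicate 1, -0.51 in replicate 2, and from -0.19 to 0.05 elsewhere. The group results and the genes printed by library are therefore given with and without B6.Sle1b replicate 1, where their mean without it still reached 10. The labels do not say that each library came from a separate mouse, so the p-values cover only the spread among these samples, which may be technical.

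Differences were tested on log2(scaled count + 1) with limma, over the 19227 named loci whose mean reached 10, and are given as Sle1b.IFNγR-/- minus B6.Sle1b. No locus in the table passed an adjusted p of 0.05 (0%), and therefore none of the 38 folding and secretion genes that could be tested; the smallest adjusted p was 0.9998. At an unadjusted p under 0.05, 399 loci were lower in Sle1b.IFNγR-/- (2.08%) and 197 higher (1.02%). Of the 38 genes, 36 had a log2 difference below 0 (94.7%, against 58.1% of all tested loci), and their median was -0.61 against -0.08 over all loci. Creld2, Derl3, P4hb, Derl2 and Txndc5, 5 in all, had an unadjusted p under 0.05 and were lower in Sle1b.IFNγR-/- (13.2%, against the 2.08% of all loci). In 8 genes every Sle1b.IFNγR-/- value lay below every B6.Sle1b value (21.1%, against 5.19% of all loci), and in none did every value lie above (against 3.51%). The 8 were Sdf2l1, Creld2, Derl2, Derl3, Ssr4, Spcs1, Ern1 and Atf4. In RNA from whole spleen, fewer cells of a type and less RNA per cell cannot be told apart.

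The difference was larger with B6.Sle1b replicate 1 than without it. B6.Sle1b replicate 1 held the highest value of the 6 in 36 of the 38 tested genes (94.7%, against 37.9% of all loci) and in 42 of all 44; the exceptions were Atf4, highest in B6.Sle1b replicate 2, and Ddit3, highest in Sle1b.IFNγR-/- replicate 2. Its ratio to the median of the other 5 libraries had a median of 3.20 over the tested genes, from 1.09 for Ddit3 to 13.7 for Creld2, against a median of 1.21 over all loci, and 5.46% of all loci exceeded 3.20. Without this library, 33 genes kept a mean of at least 10, of which 21 were lower in Sle1b.IFNγR-/- (against 48.3% of all loci) and 12 higher (Hspa5, Hyou1, Dnajc3, Canx, Pdia3, Pdia6, Ppib, Derl1, Edem2, Spcs2, Lman1 and Ddit3), with a median of -0.16 (all loci 0.02), and no gene had an unadjusted p under 0.05 in either direction (against 1.38% of all loci lower and 2.81% higher) or passed an adjusted p of 0.05 (against 0.0264%). Leaving out B6.Sle1b replicate 2 moved the differences the other way. That library was the lowest of the 6 in 11 of the 38 genes, near the share over all loci (24.3%). When it was left out, 39 of 39 genes were lower (against 63.2% of all loci), with a median of -1.17 (all loci -0.18), and the smallest adjusted p by limma was 0.0736, for Hsp90b1. Over all 44 genes, the Sle1b.IFNγR-/- mean lay within the range of B6.Sle1b replicates 2 and 3 in 22, below both in 15 and above both in 7. The shares of all loci in these positions were not computed, nor was the coefficient of variation over all loci given below. The SD was larger in B6.Sle1b than in Sle1b.IFNγR-/- for 33 of the 38 genes (86.8%, against 61.1% of all loci), and the median coefficient of variation was 74.5% in B6.Sle1b and 29.3% in Sle1b.IFNγR-/-. Ribosomal protein genes were also mostly lower (25 of 29, median -0.45), as were housekeeping genes (11 of 12, median -0.30). Their median ratios of B6.Sle1b replicate 1 to the median of the other libraries were 3.30 and 2.90. Without that library, 9 of 27 and 5 of 10 were lower. The ratio was 4.02 for markers of erythroid cells, with 5 of 10 lower, and 0.97 for those of pancreatic acinar cells, with 3 of 5 lower.

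**Figure D2:**
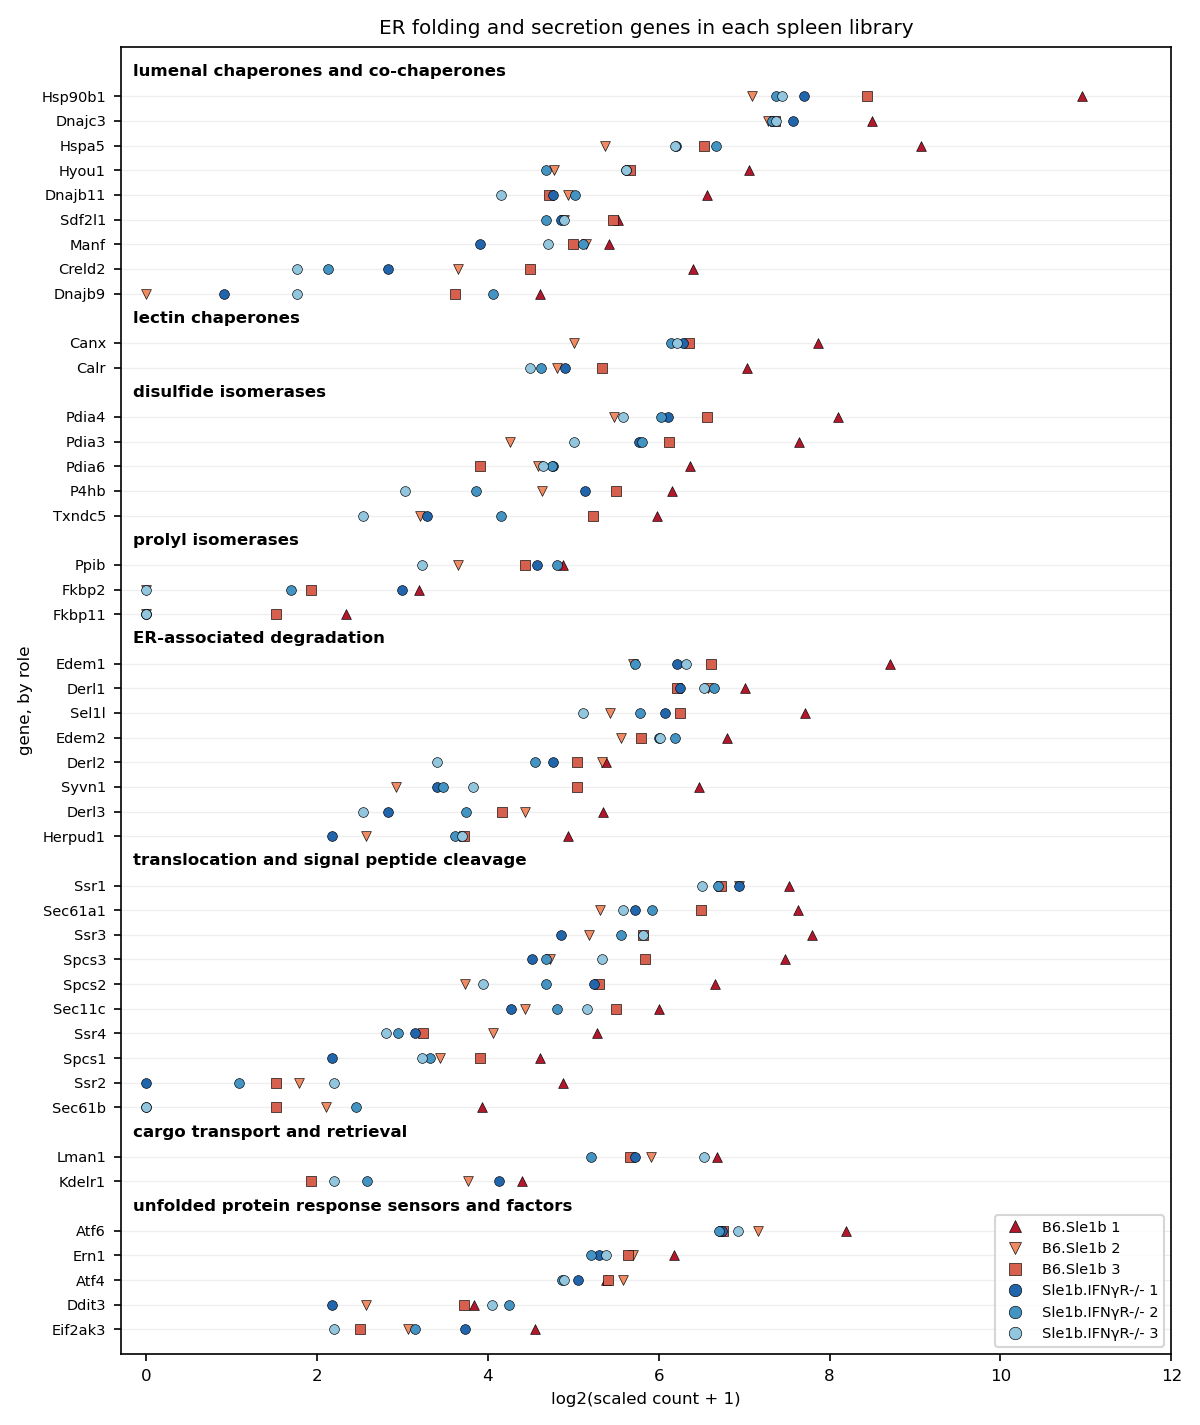
Value of each of the 44 genes in each of the 6 spleen libraries, grouped by role. The x axis is log2(scaled count + 1); triangles and squares are B6.Sle1b libraries and circles Sle1b.IFNγR-/- libraries, and B6.Sle1b replicate 1 (upright triangles) is the rightmost point in 42 of the 44 rows.

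Together the 44 genes took 0.455%, 0.171% and 0.218% of the values of named loci in B6.Sle1b replicates 1, 2 and 3, and 0.179%, 0.166% and 0.160% in Sle1b.IFNγR-/- replicates 1, 2 and 3. This share lies inside a library and does not move with the scaling between libraries. The means were 0.281% ± 0.152 (SD, n = 3) and 0.168% ± 0.00978 (SD, n = 3), a difference of -0.113 percentage points, and without B6.Sle1b replicate 1 the difference was -0.0262 points. The Sle1b.IFNγR-/- libraries were close to each other and to B6.Sle1b replicate 2, and the groups overlapped. Lumenal chaperones alone took 0.213% in B6.Sle1b replicate 1 while the other 5 libraries lay between 0.0504% and 0.0755%.

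**Figure D3:**
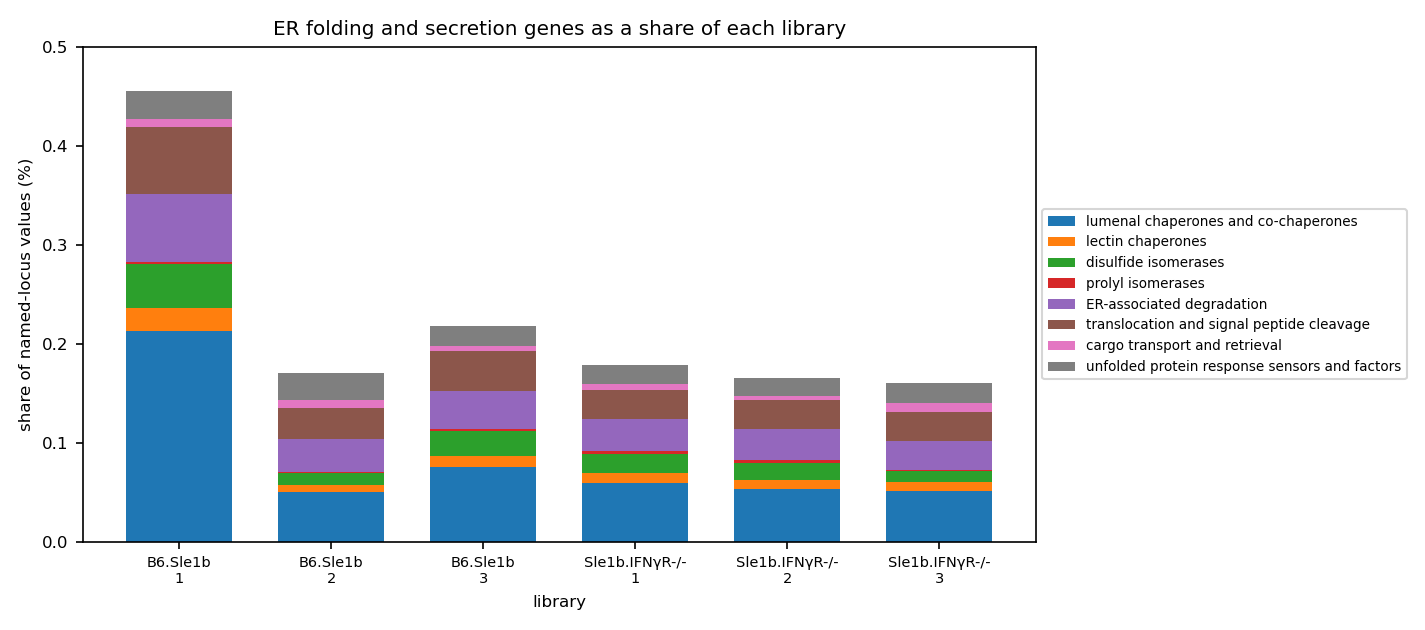
Summed values of the 44 genes as a percentage of the summed values of all named loci in each library, stacked by role. Bars start at 0; the bar of B6.Sle1b replicate 1 reaches 0.455% and the other 5 lie between 0.160% and 0.218%.

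The lumenal chaperones bind unfolded chains directly, and their co-chaperones tune them. All 8 tested genes of the 9 were lower in Sle1b.IFNγR-/-, with a median log2 difference of -0.62; without B6.Sle1b replicate 1, 4 of 7 were lower, with a median of -0.18. Hsp90b1, which encodes GRP94, the ER member of the HSP90 family and the folding factor of Toll-like receptors and integrins, was the most abundant of the 44 genes per length, with a median of 47.1 scaled counts per kb of exon over the 6 libraries. It measured 1985, 136 and 345 scaled counts in B6.Sle1b replicates 1, 2 and 3, and 207, 164 and 172 in Sle1b.IFNγR-/- replicates 1, 2 and 3. The groups overlapped, as B6.Sle1b replicate 2 was the lowest of the 6 and replicate 1 was 11.5 times the median of the others. Its log2 difference was -1.33 (SE 0.67), and -0.26 (SE 0.29) without B6.Sle1b replicate 1. Its locus (chr10:86690209-86705509; gene coordinates are from GENCODE release 21 on GRCm38) is merged in the deposited table with the predicted genes Gm15344 and Gm25745, so reads of these are counted with it. Creld2 (chr15:88819646-88826683), a co-chaperone induced by ER stress, showed the largest difference of the 44 genes. It measured 83.6, 11.5 and 21.6 scaled counts in B6.Sle1b, and in Sle1b.IFNγR-/- 6.12, 3.37 and 2.40, with no overlap. The log2 difference was -2.61 (SE 0.75, unadjusted p 0.00406 by limma). Sle1b.IFNγR-/- replicates 2 and 3 were at or under 3 fragments, and with a pseudocount of 10 in place of 1 the difference was -1.52. Without B6.Sle1b replicate 1 its mean was under 10 and it was not tested. Sdf2l1, a partner of BiP in the ER lumen, had 44.8, 28.8 and 43.1 scaled counts for B6.Sle1b and 28.0, 24.7 and 28.7 for Sle1b.IFNγR-/-. The groups were separated by less than 1 scaled count, and the log2 difference was -0.48 (SE 0.34), or -0.37 (SE 0.39) without B6.Sle1b replicate 1.

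Hspa5 encodes BiP, the main HSP70 of the ER and the chaperone first found as immunoglobulin heavy chain binding protein. It measured 223 ± 273 scaled counts in B6.Sle1b and 81.9 ± 16.7 in Sle1b.IFNγR-/- (SD, n = 3 each), with 537 in B6.Sle1b replicate 1. Its log2 difference was -0.63 (SE 0.67), and 0.41 (SE 0.33) without that library, so its direction turned. The co-chaperone Dnajc3, an inhibitor of PERK, was second in level per length, at a median of 31.8 scaled counts per kb, and measured 225 ± 115 and 171 ± 15.8. The nucleotide exchange factor Hyou1 measured 69.5 ± 55.8 and 40.2 ± 13.4, and Dnajb11, a BiP co-chaperone, 49.6 ± 38.3 and 24.8 ± 7.45. Manf, a secreted stress-induced factor that binds BiP, measured 35.7 ± 5.52 and 24.3 ± 9.89 at a locus merged with Rbm15b. Dnajb9, which dampens IRE1, was below the mean of 10 required for testing, at 11.6 ± 11.7 and 6.33 ± 8.17.

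Calr and Canx encode calreticulin and calnexin, which hold glycoproteins that still carry a terminal glucose. Calr measured 130.4, 27.1 and 39.4 scaled counts in the B6.Sle1b libraries, against 28.9, 23.6 and 21.6 in the Sle1b.IFNγR-/- libraries. Only B6.Sle1b replicate 2 overlapped with the other group, and the log2 difference was -1.06 (SE 0.49), or -0.40 (SE 0.41) without B6.Sle1b replicate 1. Canx measured 232, 31.2 and 80.6 scaled counts in B6.Sle1b, and in Sle1b.IFNγR-/- 76.9, 69.7 and 73.1. Its Sle1b.IFNγR-/- values lay close together between B6.Sle1b replicates 2 and 3. The log2 difference of Canx was -0.20 (SE 0.53), and 0.53 (SE 0.35) without B6.Sle1b replicate 1.

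The disulfide isomerases form and rearrange the disulfide bonds that antibodies depend on. All 5 had a log2 difference below 0, with a median of -0.81; without B6.Sle1b replicate 1, 3 of 5 did, with a median of -0.12. P4hb, the archetypal protein disulfide isomerase, measured 70.3, 23.8 and 44.1 scaled counts for B6.Sle1b and 34.1, 13.5 and 7.19 for Sle1b.IFNγR-/-. The groups overlapped through Sle1b.IFNγR-/- replicate 1, and the log2 difference was -1.42 (SE 0.54, unadjusted p 0.0216 by limma), or -1.06 (SE 0.54) without B6.Sle1b replicate 1. Txndc5, an isomerase abundant in plasma cells, was the only gene here with an unfolded protein response element core, in 1 of its 3 promoter windows. It measured 62.2, 8.22 and 36.6 scaled counts in the B6.Sle1b libraries, against 8.74, 16.9 and 4.79 in the Sle1b.IFNγR-/- libraries. B6.Sle1b replicate 2 lay among the Sle1b.IFNγR-/- values, and the log2 difference was -1.48 (SE 0.68, unadjusted p 0.0498 by limma), or -0.89 (SE 0.74) without B6.Sle1b replicate 1. Pdia4 had the highest level of the group, at 272, 43.6 and 93.7 scaled counts in B6.Sle1b, and in Sle1b.IFNγR-/- 68.2, 64.1 and 46.7. Its groups overlapped, with a log2 difference of -0.81 (SE 0.51), or -0.12 (SE 0.34) without B6.Sle1b replicate 1, and its locus is merged with the microRNA gene Mir704. Pdia3, the partner of calnexin and calreticulin, measured 94.9 ± 92.9 and 46.5 ± 13.3 (SD, n = 3 each), and Pdia6 39.5 ± 36.6 and 25.3 ± 1.22. Of the prolyl isomerases, Ppib (cyclophilin B) measured 28.5, 11.5 and 20.6 scaled counts for B6.Sle1b and 22.7, 27.0 and 8.38 for Sle1b.IFNγR-/-. The groups were interleaved, with a log2 difference of -0.12 (SE 0.52), or 0.16 (SE 0.57) without B6.Sle1b replicate 1. Fkbp2 was too low to test, at 3.65 ± 4.14 and 3.08 ± 3.57. Fkbp11, an isomerase of secretory cells, was read at 4.08, 0 and 1.87 scaled counts in B6.Sle1b and at 0 in all 3 Sle1b.IFNγR-/- libraries, at or near the level of 3 fragments throughout.

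ER-associated degradation extracts misfolded proteins through a membrane complex built around the ubiquitin ligase HRD1 (Syvn1) and its partner Sel1l, with the derlins as channel parts. Of the 8 genes, 7 were lower in Sle1b.IFNγR-/-, with a median log2 difference of -0.86; without B6.Sle1b replicate 1, 5 of 7 were lower, with a median of -0.18. Derl3 (chr10:75893413-75895941), a derlin induced by ER stress, measured 39.7, 20.6 and 16.9 scaled counts in the B6.Sle1b libraries, against 6.12, 12.4 and 4.79 in the Sle1b.IFNγR-/- libraries. The groups did not overlap, with or without B6.Sle1b replicate 1. The log2 difference was -1.61 (SE 0.56, unadjusted p 0.013 by limma), and -1.26 (SE 0.73) without that library. Derl2 (chr11:71007164-71019841), another derlin, measured 40.8, 39.5 and 31.9 scaled counts in B6.Sle1b, and in Sle1b.IFNγR-/- 26.2, 22.5 and 9.58. B6.Sle1b replicate 1 did not stand out for Derl2, at 1.55 times the median of the other libraries. The log2 difference was -1.01 (SE 0.42, unadjusted p 0.0321 by limma), and -0.95 (SE 0.47) without that library. Edem1, a mannosidase-like factor that marks glycoproteins for degradation, measured 416, 51.0 and 96.6 scaled counts for B6.Sle1b and 73.5, 51.7 and 79.1 for Sle1b.IFNγR-/-. B6.Sle1b replicate 2 was the lowest of all, and the log2 difference was -0.92 (SE 0.57), or -0.07 (SE 0.33) without replicate 1. Among the rest, Sel1l measured 109 ± 88.4 and 51.3 ± 16.6 (SD, n = 3 each), Syvn1 42.0 ± 41.5 and 11.0 ± 1.93, and Herpud1, a stress-induced scaffold of the complex, 15.6 ± 12.7 and 8.90 ± 4.70. Derl1 measured 98.3 ± 27.3 and 88.4 ± 12.1, and Edem2, the 1 gene of this role with a log2 difference above 0 (0.02, SE 0.35), 70.2 ± 34.8 and 66.1 ± 5.03.

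Sec61 and the translocon-associated Ssr proteins carry the chain across the membrane, and the signal peptidase subunits Sec11c and Spcs1 to Spcs3 cut off its signal peptide. All 8 tested genes of the 10 were lower in Sle1b.IFNγR-/-, with a median log2 difference of -0.80; without B6.Sle1b replicate 1, 5 of 6 were lower, with a median of -0.14. Ssr1, the highest of this role, measured 183, 122 and 105 scaled counts in the B6.Sle1b libraries, against 122, 102 and 89.8 in the Sle1b.IFNγR-/- libraries. The groups overlapped, and the log2 difference was -0.35 (SE 0.29), or -0.12 (SE 0.27) without B6.Sle1b replicate 1. Ssr4 measured 37.7, 15.6 and 8.44 scaled counts in B6.Sle1b, and in Sle1b.IFNγR-/- 7.87, 6.74 and 5.99, without overlap and with a log2 difference of -1.22 (SE 0.65). Spcs1 measured 23.4, 9.87 and 14.1 scaled counts for B6.Sle1b and 3.50, 8.99 and 8.38 for Sle1b.IFNγR-/-, again without overlap, and had a log2 difference of -1.08 (SE 0.67). Both genes had a mean under 10 without B6.Sle1b replicate 1. Spcs3 measured 177, 25.5 and 56.2 scaled counts in the B6.Sle1b libraries, against 21.9, 24.7 and 39.5 in the Sle1b.IFNγR-/- libraries. B6.Sle1b replicate 2 overlapped with the other group, and the log2 difference was -1.17 (SE 0.56), or -0.44 (SE 0.42) without replicate 1. The channel subunit Sec61a1 measured 108 ± 81.3 and 52.6 ± 6.48 (SD, n = 3 each), Ssr3 104 ± 101 and 43.1 ± 13.8, Spcs2 50.2 ± 44.9 and 25.3 ± 11.2, and Sec11c 42.6 ± 21.3 and 26.7 ± 8.19. Sec61b (6.48 ± 6.78 and 1.50 ± 2.60) and Ssr2 (11.0 ± 15.2 and 1.57 ± 1.84) were too low to test.

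Lman1 (ERGIC-53) carries glycoproteins from the ER toward the Golgi, and Kdelr1 returns escaped ER proteins by their C-terminal retrieval signal. Lman1 measured 102, 59.2 and 49.7 scaled counts in B6.Sle1b, and in Sle1b.IFNγR-/- 51.6, 36.0 and 91.0. The groups were interleaved, with a log2 difference of -0.27 (SE 0.39), or 0.03 (SE 0.36) without B6.Sle1b replicate 1. Kdelr1 measured 11.8 ± 8.65 and 8.36 ± 7.06 (SD, n = 3 each).

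Of the sensors and transcription factors of the unfolded protein response, 3 of the 4 tested were lower in Sle1b.IFNγR-/-, with a median log2 difference of -0.53, and without B6.Sle1b replicate 1 again 3 of 4, with a median of -0.27. B6.Sle1b replicate 1 was the highest library in 2 of the 4, and its ratio to the median of the other libraries had a median of 1.51. Ern1, which encodes the sensor IRE1 that splices Xbp1 mRNA, measured 71.3, 51.0 and 48.7 scaled counts for B6.Sle1b and 38.5, 36.0 and 40.7 for Sle1b.IFNγR-/-. The groups did not overlap, with a log2 difference of -0.54 (SE 0.31), and of -0.37 (SE 0.34) without B6.Sle1b replicate 1. Atf4, the transcription factor translated when PERK is active, measured 40.8, 46.9 and 41.2 scaled counts in the B6.Sle1b libraries, against 32.4, 28.1 and 28.7 in the Sle1b.IFNγR-/- libraries. These groups did not overlap either, the log2 difference was -0.52 (SE 0.32), and it was -0.55 (SE 0.37) without B6.Sle1b replicate 1, which was not its highest library. Atf6 measured 290.4, 142 and 107 scaled counts in B6.Sle1b, and in Sle1b.IFNγR-/- 106, 103 and 121. It overlapped, with a log2 difference of -0.58 (SE 0.35), or -0.17 (SE 0.26) without B6.Sle1b replicate 1. Ddit3 (CHOP), a target of ATF4 linked to cell death under lasting stress, measured 10.1 ± 4.53 and 12.4 ± 7.76 (SD, n = 3 each), with a log2 difference of 0.11 (SE 0.75). Eif2ak3, which encodes PERK, was too low to test, at 11.5 ± 9.55 and 7.90 ± 4.32. Whether these 5 genes differ from the other roles was not tested.

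**Figure D4:**
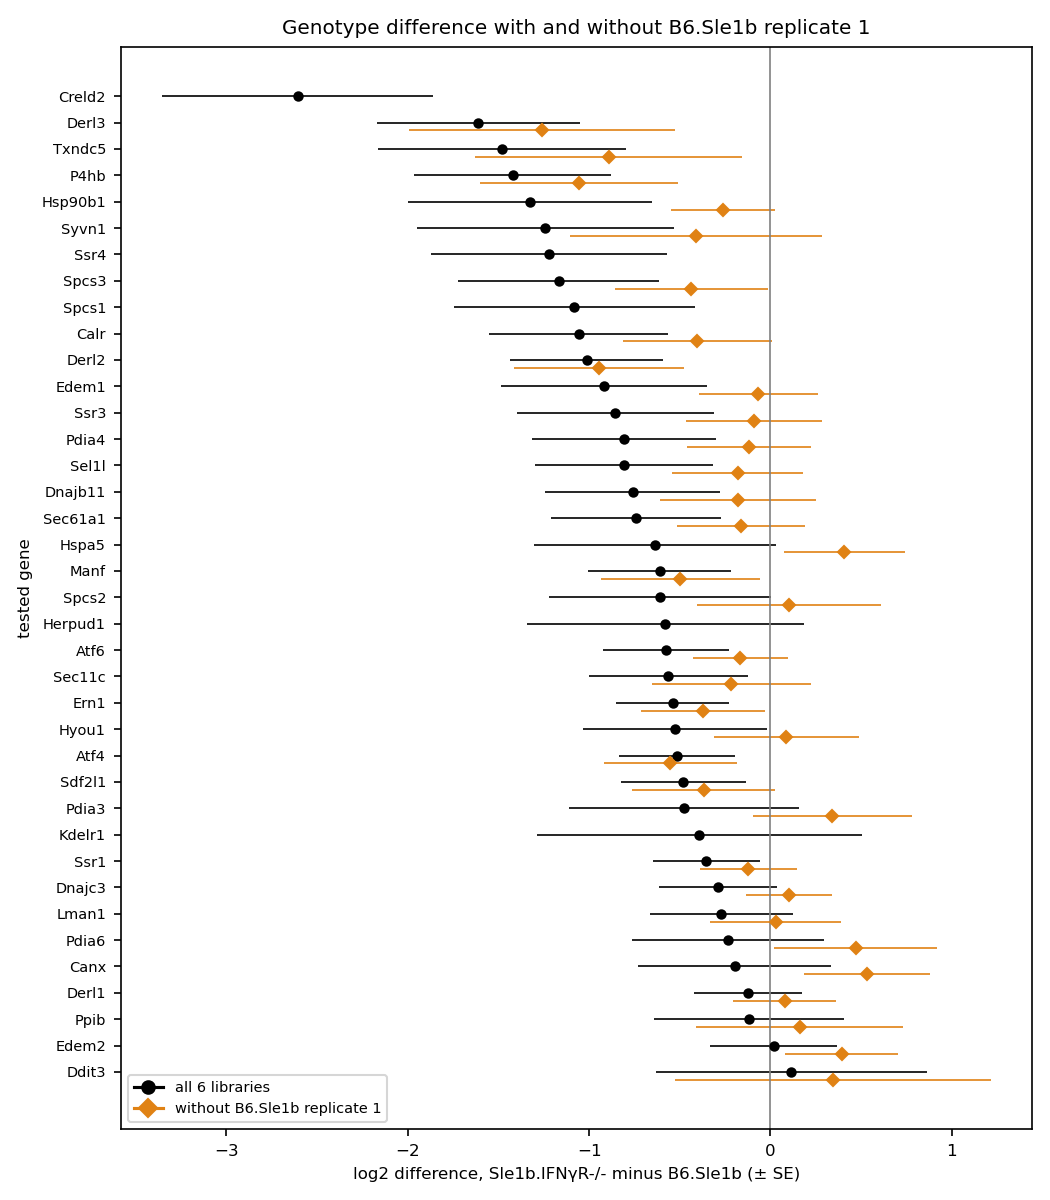
Log2 difference (Sle1b.IFNγR-/- minus B6.Sle1b, with its SE as bars) of the 38 tested genes over all 6 libraries (black) and, for the 33 that kept a mean of at least 10, without B6.Sle1b replicate 1 (orange). Over all libraries 36 points lie below 0, and without that library 21 of 33 do; Derl3, P4hb, Derl2 and Atf4 keep most of their distance from 0 while Hsp90b1, Edem1 and Hspa5 do not.

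Of the 8 separated genes, 5 (Sdf2l1, Derl2, Derl3, Ern1 and Atf4) were also separated without B6.Sle1b replicate 1 (15.2% of 33, against 8.76% of all loci), and 2 genes, Pdia6 and Edem2, were then separated in the other direction (6.06%, against 10.2% of all loci). Without B6.Sle1b replicate 2 the number separated was 25 of 39, all lower (64.1%, against 16.6% of all loci). The 11 genes with an exact ERSE or ERSE-II were all lower over the 6 libraries, with a median log2 difference of -0.76 and a median ratio of B6.Sle1b replicate 1 to the others of 3.57. The 19 tested genes with a promoter entry and neither element had 17 lower, a median of -0.61 and a median ratio of 2.95. Without B6.Sle1b replicate 1 these median log2 differences were -0.18 and -0.12, with 5 of 9 and 11 of 16 genes lower (against 48.3% of all loci). The difference between the 2 sets was not tested.

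The rest of the ER pathway, from a list of 91 further genes of which 90 were found and 80 tested, also had mostly lower values. Of the 80, 64 were lower in Sle1b.IFNγR-/- (80.0%, against 58.1% of all loci), with a median of -0.34; 6 had an unadjusted p under 0.05, all lower (against 2.08% of all loci), and none passed an adjusted p of 0.05. By list, 8 of 10 other genes of the unfolded protein response were lower (median -0.30), 15 of 17 of ER-associated degradation (-0.36), 7 of 10 of oxidative folding (-0.18), 9 of 12 of N-glycosylation and glucose trimming (-0.43), 9 of 13 of targeting and translocation (-0.21), and 16 of 18 of ER export and retrieval (-0.43). Kdelr2, a retrieval receptor like Kdelr1, measured 31.6, 33.7 and 34.7 scaled counts for B6.Sle1b and 13.1, 19.1 and 19.2 for Sle1b.IFNγR-/-. These groups did not overlap, B6.Sle1b replicate 1 was the lowest of its group, and the log2 difference was -0.94 (SE 0.37, unadjusted p 0.0242 by limma), or -0.98 without that library. Surf4, a cargo receptor, measured 82.5, 22.2 and 27.2 scaled counts in the B6.Sle1b libraries, against 9.62, 31.5 and 9.58 in the Sle1b.IFNγR-/- libraries, with overlap and a log2 difference of -1.30 (SE 0.57), or -0.73 (SE 0.55) without B6.Sle1b replicate 1. Srpr, the docking receptor of the signal recognition particle, measured 142, 46.9 and 55.3 and then 45.5, 27.0 and 39.5 scaled counts, without overlap and with a log2 difference of -0.96 (SE 0.42), or -0.47 (SE 0.36) without B6.Sle1b replicate 1. On the other side, the isomerase Pdia5 (38.7, 46.0 and 44.1 against 45.5, 65.2 and 51.5), the eIF2α phosphatase subunit Ppp1r15a (10.2, 1.64 and 13.1 against 16.6, 16.9 and 4.79) and the coat protein Sec23a (26.5, 13.2 and 15.9 against 20.99, 18.0 and 31.1) had the smallest p among genes with higher values in Sle1b.IFNγR-/-. Their log2 differences were 0.31 (SE 0.31), 0.71 (SE 0.86) and 0.34 (SE 0.43), all 3 overlapped, and without B6.Sle1b replicate 1 the differences were 0.24, 1.00 and 0.62. Without B6.Sle1b replicate 1, 41 of 76 tested genes were lower (53.9%, against 48.3% of all loci), with a median of -0.05. An unadjusted p under 0.05 was then found for 1 lower and 3 higher genes (against 1.38% and 2.81% of all loci). With the ribosomal protein level as a covariate, described further on, 41 of 80 were lower (against 48.8% of all loci). That p was then found for 2 lower and 3 higher genes (against 1.72% and 3.65% of all loci).

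Markers of antibody-forming cells varied across the libraries alongside the folding and secretion genes. Their summed level was 17215, 2287 and 4021 scaled counts in B6.Sle1b, and in Sle1b.IFNγR-/- 1991, 1826 and 2161. Igkc and Ighm made up most of this sum over 15 genes, so it says little about the other markers. Of the 12 tested, 11 were lower in Sle1b.IFNγR-/- with a median of -0.88, and 4 had an unadjusted p under 0.05 (against 2.08% of all loci). Without B6.Sle1b replicate 1, 10 of 12 were lower, with a median of -0.27, and 2 had an unadjusted p under 0.05 (against 1.38%). Igkc, the kappa light chain constant region, measured 9267, 677 and 1097 scaled counts for B6.Sle1b and 424, 357 and 461 for Sle1b.IFNγR-/-. It did not overlap between the groups, and its log2 difference was -2.21 (SE 0.68, adjusted p 0.9998 by limma), or -1.06 (SE 0.21, adjusted p 0.105) without B6.Sle1b replicate 1. Igkc passed the threshold without B6.Sle1b replicate 2 (log2 difference -2.95, adjusted p 0.0155 by limma) and with the ribosomal protein level as a covariate (-1.15, adjusted p 0.00214). Igj, the joining chain of secreted IgM and IgA, measured 377, 53.4 and 86.2 scaled counts and then 44.6, 52.8 and 40.7, also without overlap (log2 difference -1.38, SE 0.54, or -0.56, SE 0.33, without B6.Sle1b replicate 1). Prdm1 (Blimp-1) measured 86.6, 59.2 and 64.7 and then 35.0, 42.7 and 50.3, without overlap (log2 difference -0.70, SE 0.31, or -0.54, SE 0.33, without that library). Xbp1, which is also in the list of unfolded protein response genes, measured 216, 18.1 and 67.5 and then 27.1, 25.8 and 26.4, with B6.Sle1b replicate 2 the lowest of all (log2 difference -1.26, SE 0.64, or -0.40, SE 0.46, without replicate 1). Sdc1 (CD138), too low to test, measured 26.5, 4.93 and 7.50 and then 2.62, 3.37 and 4.79. Tnfrsf17 (BCMA) was listed at 0 in all 6 libraries, and Mzb1 at 22.4, 0 and 2.81 and then 0, 5.62 and 3.59.

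B6.Sle1b replicate 1 was the highest library for other lists as well. Genes of proliferating cells summed to 3120, 414 and 929 scaled counts in the B6.Sle1b libraries, against 801, 838 and 690.0 in the Sle1b.IFNγR-/- libraries, and B cell markers to 2373, 1026 and 1388 and then 1224, 1298 and 1296. Markers of erythroid cells summed to 2589 scaled counts in B6.Sle1b replicate 1, where the other libraries lay between 267 and 861, and the sums for T cells, red pulp macrophages, neutrophils, platelets, monocytes with dendritic cells, and stroma were highest there too. Markers of pancreatic acinar cells, another secretory cell type that lies beside the spleen, summed to between 106 and 184 scaled counts in all 6 libraries and did not follow the order of the folding and secretion genes: B6.Sle1b replicate 1 was at 180.4 and replicate 2 at 184. Relative to each gene's mean, the median levels in B6.Sle1b replicates 1, 2 and 3 were 1.50, -0.44 and 0.18 log2 units for the folding and secretion genes and 1.68, -0.47 and 0.20 for the antibody-forming cell markers. In Sle1b.IFNγR-/- replicates 1, 2 and 3 they were -0.27, -0.24 and -0.33, and -0.54, -0.48 and -0.33. The part that any of these lists, the ribosomal protein level or B6.Sle1b replicate 1 has in the genotype difference was not tested. When the library's ribosomal protein level entered the fit as a covariate, 26 of 38 folding and secretion genes were lower (against 48.8% of all loci), with a median of -0.18 (all loci 0.01). Creld2, P4hb, Derl2 and Derl3 then had an unadjusted p under 0.05, all lower (against 1.72% of all loci), no gene had it in the other direction (against 3.65%), and no gene passed an adjusted p of 0.05 (against 0.0416%). When the libraries were instead scaled to their ribosomal protein genes, 26 of 37 genes were lower (against 18.0% of all loci) and the median was -0.13, while the median of all loci was 0.40 and that of the other ER pathway genes 0.18. Among the genes printed by library, Sdf2l1, Canx, Ppib, Ssr1 and Lman1 then had log2 differences above 0. Edem2 (0.52), Derl1 (0.37), Pdia6 (0.26), Dnajc3 (0.21) and Pdia3 (0.03) were above 0 as well. Creld2 alone then had an unadjusted p under 0.05 and was lower (against 0.112% of all loci), no gene had it in the other direction (against 2.49%), and none passed an adjusted p of 0.05 (against 0.0102%).

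**Figure D5:**
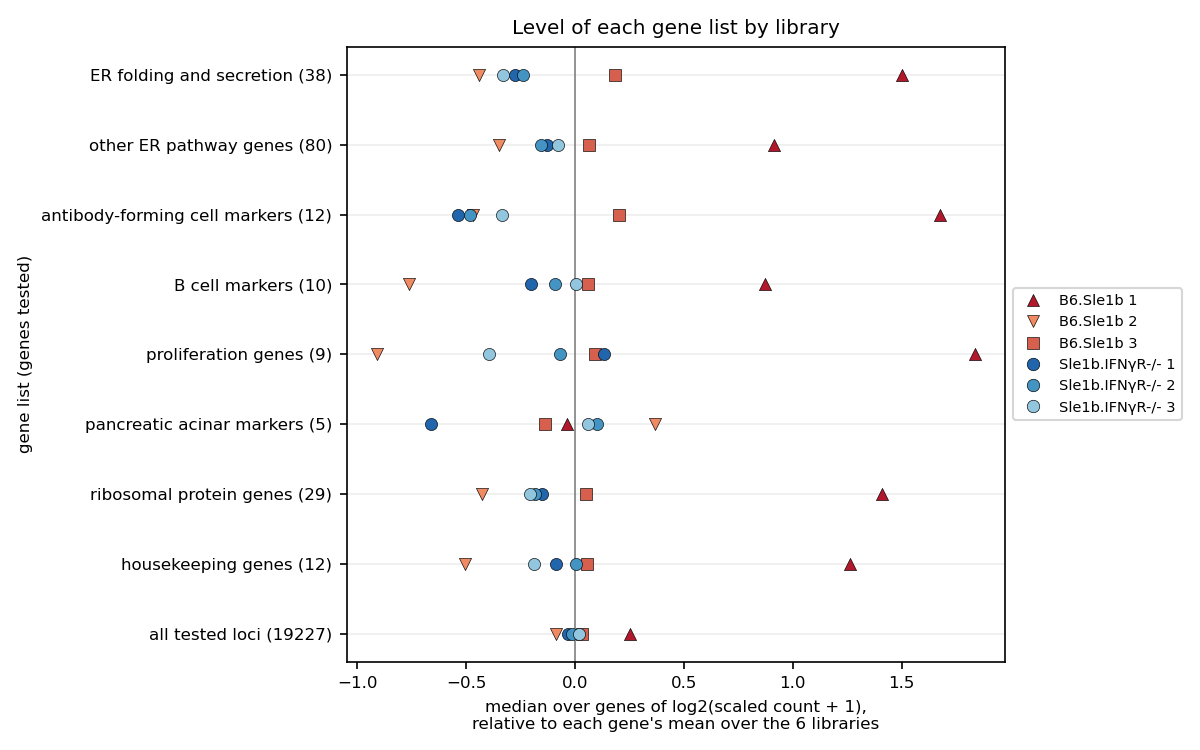
Level of each gene list in each library, as the median over the list's tested genes of log2(scaled count + 1) relative to each gene's mean over the 6 libraries; the number tested is in parentheses. B6.Sle1b replicate 1 (upright triangles) lies at 1.50 for the folding and secretion genes, 1.68 for antibody-forming cell markers, 1.84 for proliferation genes and 1.41 for ribosomal protein genes, and at -0.04 for pancreatic acinar markers.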

How the data were processed

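Spleen RNA of 3 B6.Sle1b and 3 Sle1b.IFNγR-/- samples was sequenced from Ovation cDNA libraries, per the labels' protocols. The submitters' processing notes name build GRCm38 and the tools CASAVA, TopHat2 (2.0.9) and Cufflinks (2.2.1), without settings. Neither the annotation nor the strand handling is given in the sources used here. The deposited values are a signal: fragment counts for each locus to which the authors applied quartile scaling, per the file headers. The table's 1530481 rows repeat each locus per transcript and were collapsed to 426574 loci, with 0 disagreeing, of which 381780 carry no gene name and were not tested. In each library 99.8% of positive values were whole multiples of a single step, within 0.01 of it, which gave the fragment totals. A further 24 columns of per-sample values were not used.

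Tests used limma (3.58.1, R 4.3.3) on log2(value + 1) for named loci whose mean reached 10, with an intensity trend, a genotype term and Benjamini-Hochberg adjustment over 19227 loci. This scale understates the fold of low genes. The code was tested on simulated data. Genes and lists were chosen with earlier results of these data known. Values in every library are printed for the gene of highest mean in each role, the genes whose groups do not overlap, the 8 genes of smallest p, the 3 other pathway genes of smallest p in each direction, and 5 markers of antibody-forming cells. Coordinates are from GENCODE mouse release 21, and promoters from RefSeq (GRCm38.p6). Overlapping genes cannot be separated. Protein sequences were not analysed here. The replicate numbers were checked for pairing. Alternatives covered the scaling, a ribosomal covariate, the pseudocount, the filter, the replicate block and each library left out.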

Additional observations from a re-analysis of the deposited data

How the results depend on the processing

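The count of loci past an adjusted p of 0.05 was 0 under the deposited scaling and under median-ratio and total scaling, pseudocounts of 0.5 and 10, no filter and a minimum mean of 50, 2 when libraries were scaled to ribosomal protein genes, 8 with the ribosomal covariate, and from 0 to 5 with a library left out (5 without B6.Sle1b replicate 1 and 5 without replicate 2). None of the folding and secretion genes was among them under any of these, and their median log2 difference ranged from -1.17 to -0.16 with a library left out. Tests for counts were not run, since not all values came out as whole fragments. Same-numbered libraries did not deviate together (correlations of 0.01, -0.03 and -0.01), so the replicate block rests on a shared number only. With the block 0 loci passed. Every replicate number occurs in both groups, so the block changes the SE but not the log2 difference. That the median stayed at -0.61 was therefore fixed by the design. The number of these genes with groups that do not overlap was 8, all lower (21.1%, against 5.19% of all loci). Without B6.Sle1b replicate 1 it was 5 lower and 2 higher (against 8.76% and 10.2% of all loci). Without replicate 2 it was 25, all lower (64.1%, against 16.6%). With any library left out it lay between 7 and 25. It was 4 under ribosomal scaling and 0 with a minimum mean of 50, where 17 genes were tested. The shares of all loci with groups that do not overlap were not computed for these settings or the other libraries left out. The share of named-locus values differed by between -0.168 and -0.0262 points with a library left out. ERSE matches numbered 16 with 1 mismatch. Ribosomal scaling moves the median of all loci from -0.08 to 0.40 and that of these genes to -0.13. Among the genes printed by library, Sdf2l1 (0.0045), Canx (0.31), Ppib (0.36), Ssr1 (0.15) and Lman1 (0.22) turned to log2 differences above 0 under it. Canx (0.53) and Ppib (0.18) did so with the covariate. Genes not printed by library turned as well, such as Pdia3 (0.03 under ribosomal scaling and 0.36 with the covariate). With a library left out, Canx ranged from -0.90 to 0.53, Lman1 from -0.62 to 0.034 and Ppib from -0.46 to 0.37. Of 168 other settings of the 20 genes printed by library, 161 kept their direction and 7 turned. This count does not include the fits with a library left out. It does include the fits with no filter, a minimum mean of 50 and the replicate block, which cannot change a log2 difference. Agreement under those was fixed in advance, and the 7 turns were those under ribosomal scaling and the covariate. Canx (0.53), Ppib (0.16) and Lman1 (0.03) also turned without B6.Sle1b replicate 1. For the other pathway lists, ribosomal scaling gave medians above 0. It was 0.18 over the 76 genes whose mean then reached 10. By list it was 0.20 for the unfolded protein response, 0.13 for degradation, 0.35 for oxidative folding, 0.082 for N-glycosylation, 0.34 for targeting and 0.046 for export. With a library left out the medians ranged from -0.64 to 0.055 for the unfolded protein response, -0.34 to 0.066 for oxidative folding and -0.79 to 0.040 for N-glycosylation. The cause of these turns was not tested. With 3 libraries a group and most of these genes under 100 scaled counts, only differences larger than the spread of B6.Sle1b could be called.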

Other observations

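Set against the kappa light chain transcript, the folding and secretion genes were not in a fixed proportion. Their summed value per 100 of Igkc was 76.1, 231 and 206 in B6.Sle1b replicates 1, 2 and 3, and 422, 484 and 359 in Sle1b.IFNγR-/- replicates 1, 2 and 3. Hsp90b1 alone stood at 21.4, 20.0 and 31.5 per 100 of Igkc in B6.Sle1b, and at 48.9, 45.9 and 37.4 in Sle1b.IFNγR-/-. Neither ratio overlapped between the groups, and no test was run. Igkc, the divisor, did not overlap between the groups by itself. The summed value (1549 in B6.Sle1b replicate 2, 1648 to 1771 in Sle1b.IFNγR-/-) and Hsp90b1 did overlap. The separation of the ratios is therefore not a property of the folding and secretion genes alone. The share of all loci whose ratio to Igkc would be separated was not computed.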
